A study of Mus musculus with 4 samples.

Results

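Genes that make arginine, break it down and release or capture ammonia were followed in RNA sequencing of whole embryonic mouse kidneys from which Hnf4a, a nuclear receptor gene, was to be deleted. The listed names were Ass1, Asl, Arg2, Oat, Glud1, Glul and Slc38a3, and rows were taken where the gene name in the table was exactly one of them. This found 5 of the 7 names among 22761 gene names shared by the 4 tables. Glud1 and Glul had no row of their own: each appeared in a row named jointly with a second gene, Glud1 with Gm3219, which RefSeq lists as a transcribed pseudogene, and Glul with the microRNA gene Mir8114. These 2 joint loci are described beside the 5 genes and are not counted among them unless stated. All kidneys were taken at E18.5, late in gestation, from mice of mixed strain. The 2 control libraries had the genotype Hnf4a c/+ with Six2GFPcre, so 1 Hnf4a allele was conditional, and the 2 mutant libraries had Hnf4a c/c with Six2GFPcre, so both alleles were. Six2GFPcre is a Cre recombinase expressed from Six2 sequences in nephron progenitors, so recombination reaches the nephron epithelium that they form but not stroma, vessels or collecting duct. The controls carry the same Cre and can lose 1 copy of Hnf4a, and they are therefore not wild type. The labels do not say how many embryos a library holds, and the p-values rest on the spread among 4 libraries, which may in part be technical.

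The kidney is a main source of arginine for the body. Proximal tubule cells take up citrulline from the blood; argininosuccinate synthase (Ass1) joins it to aspartate, and argininosuccinate lyase (Asl) splits the product into arginine and fumarate. Arginase 2 (Arg2), the mitochondrial arginase of kidney, turns arginine into ornithine and urea, and ornithine aminotransferase (Oat) passes ornithine towards glutamate. Ammonia is made in the same segment from glutamine, which enters from the blood through carriers such as Slc38a3 and is deaminated in steps that include glutamate dehydrogenase (Glud1); glutamine synthetase (Glul) runs the other way and binds ammonia into glutamine.

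Promoter sequence was on hand in RefSeq (GRCm38.p6) for 4 of the 7 listed names, Ass1, Oat, Glul and Glud1. The 250 bases before the start of Ass1 and of Oat are shown, since these are the 2 exactly matched genes with a sequence, and they had the largest and the smallest change of the 5. Capitals mark matches on either strand to GGGCGG (a GC box) or to CCAAT (the CCAAT box); no other letters are marked.
Ass1, chr2:31470020-31470269, plus strand: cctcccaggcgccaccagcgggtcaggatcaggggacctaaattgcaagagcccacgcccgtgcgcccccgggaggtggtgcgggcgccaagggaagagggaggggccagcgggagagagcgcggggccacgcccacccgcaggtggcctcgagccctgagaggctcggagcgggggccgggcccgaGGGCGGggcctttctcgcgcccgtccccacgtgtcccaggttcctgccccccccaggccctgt
Oat, chr7:132576399-132576648, minus strand: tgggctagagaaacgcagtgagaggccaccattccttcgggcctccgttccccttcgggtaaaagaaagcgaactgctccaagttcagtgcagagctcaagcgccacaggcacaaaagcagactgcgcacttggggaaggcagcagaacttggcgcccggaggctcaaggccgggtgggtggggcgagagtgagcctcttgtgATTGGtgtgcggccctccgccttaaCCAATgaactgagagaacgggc
The Ass1 window held 1 GC box and no CCAAT box, and the Oat window held 2 CCAAT boxes and no GC box. Of the windows not shown, that of Glul held both kinds, 1 GC box and 2 CCAAT boxes. That of Glud1 held GC boxes but no CCAAT box. Both kinds of box were added after the sequences were seen, and their relation to the changes was not tested. Over 32851 RefSeq windows of this length, 32.7% held a GC box and 33.8% a CCAAT box. The windows of Ass1, Oat, Glul and Glud1 held no match on either strand to CAAAGTC, the core of the element preferred by Hnf4 proteins, which 3.84% of all windows held. Nor did they match CAAAGGT, a related core found in 3.54%. GC content was 75.6% in the Ass1 window and 60.0% in that of Oat, against a median of 52.4% over all windows. Matches are descriptions of these letters only, and binding was not measured in this series.

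The tables give FPKM, fragments per length of transcript, scaled by the authors for library size, with no read totals, so absolute depth is unknown. Named genes with at least 1 FPKM numbered 13085 to 13183 per library. Hnf4a was at 89.3 and 84.6 FPKM in the controls and 87.1 and 78.5 in the mutants; this value covers the whole gene and does not check the deletion. Replicate 1 of each group had Ddx3y, a Y-linked gene, at 27.7 (control) and 26.4 FPKM (mutant) and Xist under 1, and replicate 2 had Xist at 81.0 and 74.0, so the replicate number also separates these sex-linked patterns. The 12 proximal tubule markers together were at 629 and 453 FPKM in the controls and 225 and 232 in the mutants. Each of the 12 was lower in both mutant libraries than in either control, as were 17.1% of all tested genes. These markers were chosen with earlier results on these libraries known, so their direction is not independent evidence. In whole kidney, fewer cells of a type and less RNA per cell cannot be told apart.

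The 2 enzymes that form arginine from citrulline were both lower in the mutant kidneys. Ass1 (mm9 chromosome 2, 31325790 to 31376190) had 111 and 103 FPKM in the controls but 63.2 and 63.8 in the mutants. The groups were far apart, and the mutant libraries almost coincided. Means were 107 ± 6.01 and 63.5 ± 0.419 FPKM (SD, n = 2 per group here and below), so the mutants held 59.2% of the control level. The log2 change was -0.75 (SE 0.07) with a limma adjusted p of 0.088, short of the threshold of 0.05 over 13287 tested genes.

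Asl (mm9 chromosome 5, ending at 130500201) was at 56.1 and 56.2 FPKM in the controls and 38.4 and 39.6 in the mutants. Within each group the libraries were close together, and the groups did not overlap. The mutants were at 69.5% of control, a log2 change of -0.52 (SE 0.07; limma adjusted p = 0.14). The start of the Asl locus varied among the 4 assemblies, from 130487136 in mutant replicate 2 to 130487373 in mutant replicate 1, and this did not go with the groups: the controls lay between at 130487239 and 130487372. The intervals that the authors' tables give around each value did not overlap between the groups for either enzyme. For Ass1 the lowest control bound was 95.8 and the highest mutant bound 68.7 FPKM, and for Asl these were 47.0 and 43.7.

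Ass1 was the more abundant of the pair in every library. The ratio of Ass1 to Asl was 1.98 and 1.83 in the controls and 1.65 and 1.61 in the mutants, so the ratio was also lower in both mutant libraries than in either control. With 2 libraries against 2, an exact two-sided permutation test cannot give a p below 0.333, so no single ratio can pass.

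**Figure D1:**
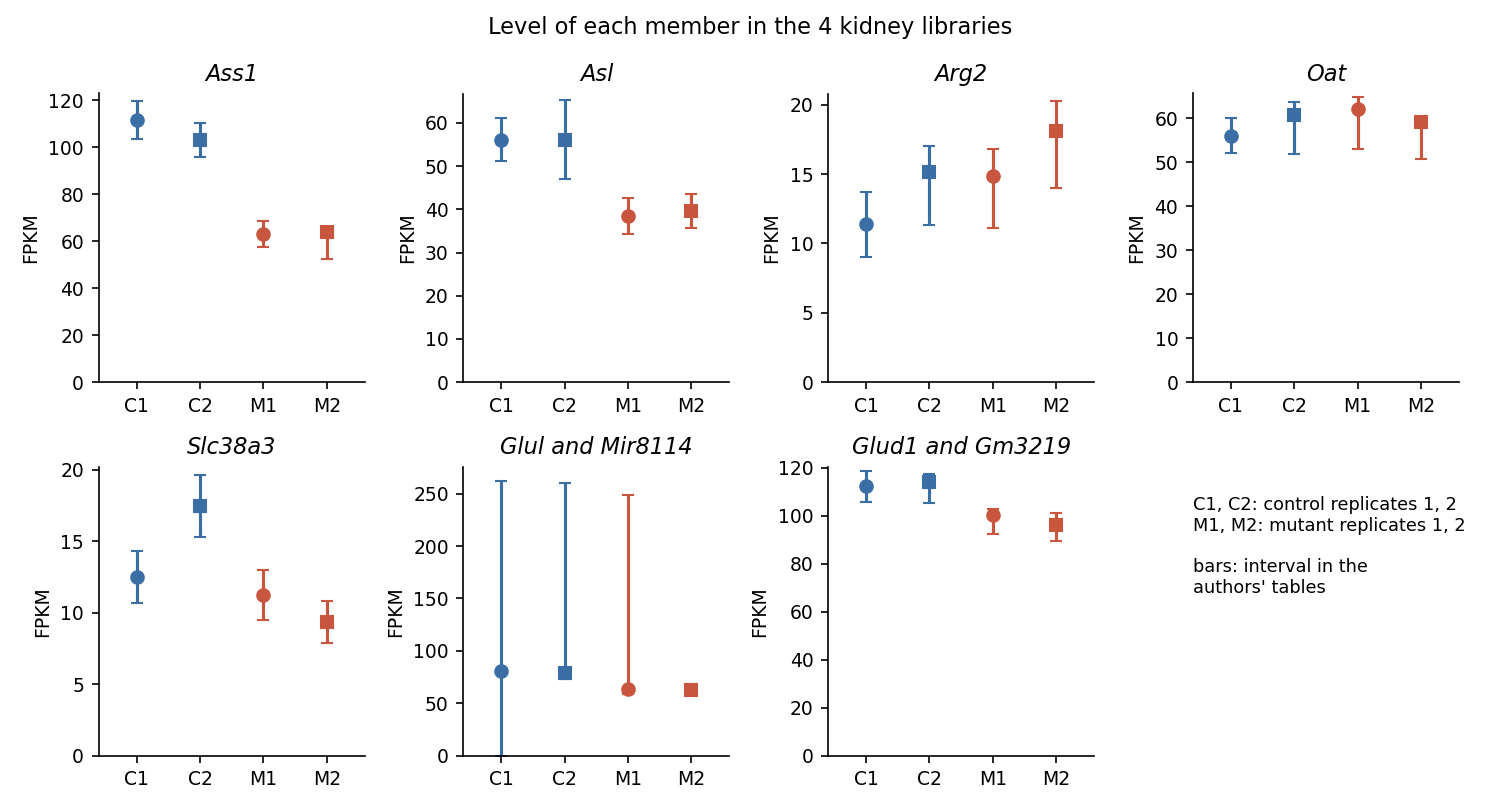
FPKM (y axes, from 0, each panel on its own scale) of the 5 genes and the 2 joint loci in control (blue, C1 and C2) and mutant (red, M1 and M2) libraries; bars are the intervals in the authors' tables. Ass1 and Asl separate by group, from 111 and 103 to 63.2 and 63.8 FPKM for Ass1, whereas Oat lies between 56.0 and 62.0 FPKM throughout, and the bars of the Glul locus reach 262 FPKM.

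Oat and Arg2, which act on ornithine and arginine, did not separate by group. Oat (mm9 chromosome 7, from 139749158 to 139768081) was at 56.0 and 60.8 FPKM in the controls and 62.0 and 59.1 in the mutants. The groups overlapped. The log2 change was 0.05, with a 95% interval from -0.16 to 0.26 (limma adjusted p = 0.86); the interval leaves out a change as large as that of Ass1 or Asl. Relative to Oat, Ass1 was at 1.99 and 1.69 in the controls and 1.02 and 1.08 in the mutants. The same ratio for Asl was 1.002 and 0.924 against 0.618 and 0.670.

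Arg2 (mm9 chromosome 12, from 80231775 to 80257288) measured 11.4 and 15.1 FPKM in the controls and 14.9 and 18.1 in the mutants, the opposite direction to Ass1 and Asl. The groups overlapped, since mutant replicate 1 lay below control replicate 2. In each group replicate 2 was the higher library, and within each replicate number the mutant was the higher of the pair. The log2 change was 0.30, with a 95% interval from -0.20 to 0.80 (limma adjusted p = 0.76), and without control replicate 1 it was 0.11. The Arg2 locus overlapped that of Vti1b, a gene of vesicle fusion, in all 4 libraries; the library kit is not described as stranded, so reads in the shared part cannot be assigned with certainty. Vti1b was at 48.9 and 54.7 FPKM in the controls and 51.8 and 53.4 in the mutants.

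Slc38a3 (mm9 chromosome 9, 107553486 to 107571299), the glutamine carrier, was at 12.5 and 17.4 FPKM in the controls and 11.2 and 9.34 in the mutants. Both mutant libraries were below both controls, but the controls differed from each other by more than control replicate 1 differed from either mutant. The mutants were at 68.7% of control, a log2 change of -0.49 (SE 0.20; limma adjusted p = 0.74). Without control replicate 2 the log2 change was -0.26, and without control replicate 1 it was -0.71, so the size of the difference depends on which control is used.

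The joint locus of Glul and Mir8114 (mm9 chromosome 1, from 155747056 to 155756853) was at 80.9 and 78.5 FPKM in the controls and 63.4 and 63.1 in the mutants. The groups did not overlap, and the mutants were at 79.4% of control (log2 change -0.33, SE 0.07; limma adjusted p = 0.30). The authors' intervals were very wide on the upper side in 3 libraries, reaching 262 and 260 FPKM in the controls and 249 in mutant replicate 1, against 68.1 in mutant replicate 2; the lower bound in control replicate 1 was 0. The share of the value that belongs to Mir8114 was not measured.

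The joint locus of Glud1 and Gm3219 (mm9 chromosome 14, ending at 35158844 in 3 libraries and at 35158858 in mutant replicate 2) was the most abundant of the 7 in every library. It was at 112 and 114 FPKM in the controls and 100.2 and 96.3 in the mutants. The groups did not overlap, but the difference was small, at 86.7% of control (log2 change -0.20, SE 0.07; limma adjusted p = 0.61). Arg2 and Slc38a3 were the least abundant in every library. The order among the others was less fixed: Ass1, second in both controls, lay within 1 FPKM of the Glul locus in both mutants.

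With limma, 0 of the 5 exactly matched genes passed an adjusted p under 0.05 in either direction; over all tested genes 0.113% passed as lower and 0.0452% as higher. At an unadjusted p under 0.05, 2 of the 5 were lower, Ass1 and Asl, where 4.57% of all tested genes were. In the higher direction 0 of the 5 had such a p, against 2.67% of all. Counting the joint loci, 4 of 7 were lower at that level, and in the joint locus of Glud1 this was lost whenever 1 library was left out. Both mutant libraries lay below both controls in 3 of the 5 genes, where 17.1% of all tested genes did; 0 of the 5 lay above without overlap, where 22.7% did. The median log2 change of the 5 was -0.49, with a range from -0.75 to 0.30, and that of all tested genes was 0.02. Without control replicate 2 the median of the 5 was -0.26.

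**Figure D2:**
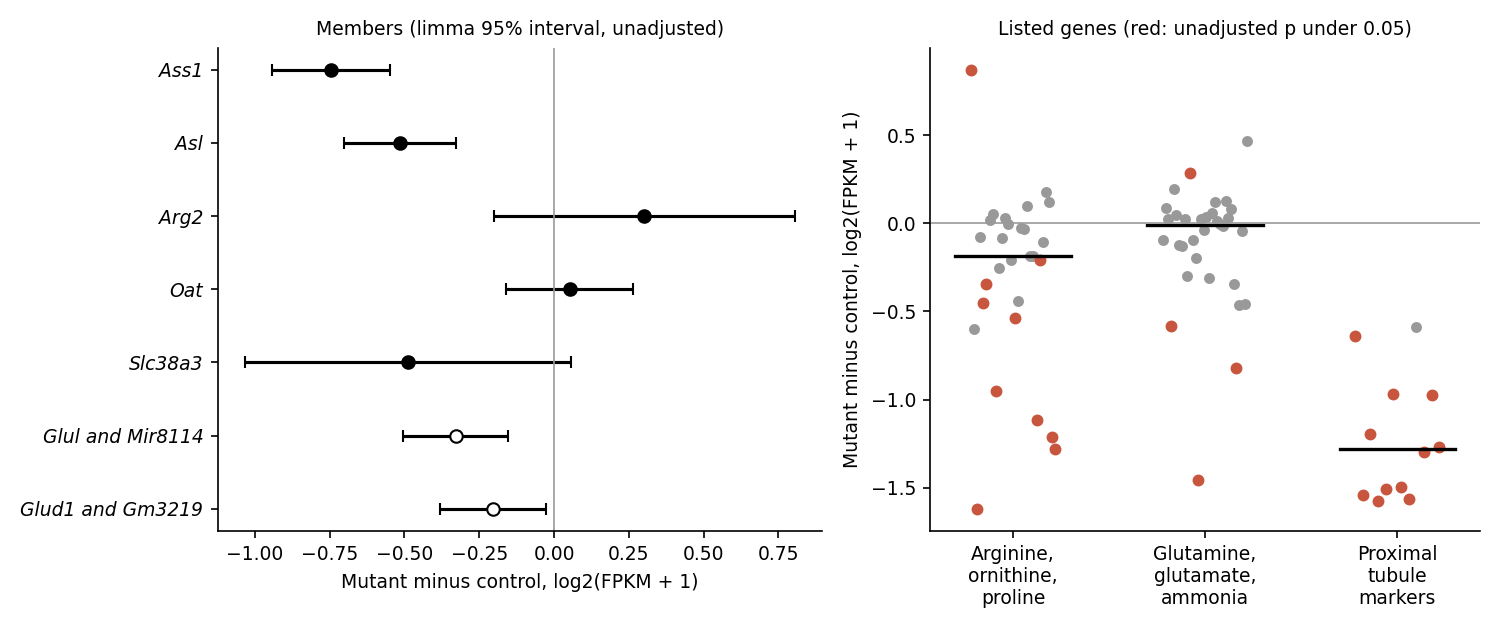
Left, log2 change (mutant minus control on the log2(FPKM + 1) scale) of the 5 genes (filled) and 2 joint loci (open) with unadjusted 95% intervals from limma; right, the same change for the tested genes of the 2 pathway lists and the proximal tubule markers, with medians as black lines and unadjusted p under 0.05 in red. The intervals of Ass1 and Asl lie below 0 and that of Oat spans 0. The marker median of -1.28 is below every member, but the markers reach up to -0.59, above Ass1.

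The other genes of arginine, ornithine and proline metabolism included several that were lower. Of 33 listed genes 28 were tested, and 0 passed the limma adjusted p in either direction. At an unadjusted p under 0.05, 4.57% of all tested genes were lower and 2.67% higher, and of this list 9 were lower and 1 higher. The list's median log2 change was -0.19, and that of all tested genes was 0.02. Agxt2, an aminotransferase that also acts on methylated arginines, was at 11.9 and 16.1 FPKM in the controls and 3.37 and 4.36 in the mutants. Gatm, which starts creatine synthesis by moving the amidino group of arginine to glycine, was at 60.2 and 56.7 against 28.1 and 31.4 FPKM. It was at 50.9% of control (log2 change -0.95, SE 0.09; limma adjusted p = 0.085), a larger difference than that of Ass1.

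The naming rule took 3 carriers of cationic amino acids or cystine from this list. Slc7a1, Slc7a2 and Slc7a6, carriers on the same list that were picked out here after their values were seen, had log2 changes of -0.11, 0.18 and 0.12. Slc7a9, the light chain of the apical exchanger for cystine and cationic amino acids, was at 16.0 and 14.5 FPKM in the controls and 5.38 and 5.98 in the mutants. Its heavy chain Slc3a1 was at 44.5 and 44.4 against 15.8 and 25.0 FPKM. Slc7a7, the light chain of the basolateral exporter of cationic amino acids, was at 45.7 and 32.4 against 15.8 and 16.3 FPKM. The groups did not overlap in any of these 3 carriers, and none passed the limma adjusted p (0.093, 0.30 and 0.18). The 3 were named by an unadjusted p under 0.05, which favours groups that do not overlap. Of the 28 tested genes on the list, 14 lay below without overlap, as did 17.1% of all tested genes. The loci of Slc3a1 and Slc7a7 overlapped those of Prepl and Oxa1l in all 4 libraries.

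The single listed gene that was higher at that level was Adc, named Azin2 in later annotation, which encodes an inhibitor of the antizyme that restrains ornithine decarboxylase. Adc was at 15.4 and 16.0 FPKM in the controls and 29.2 and 29.9 in the mutants. The libraries of each group were close together, and the mutants were at 188% of control (log2 change 0.87, SE 0.09; limma adjusted p = 0.091). Its locus (mm9 chromosome 4, ending between 128639675 and 128639949) overlapped no other named locus. Odc1, ornithine decarboxylase itself, was chosen after its values were seen and was at 82.7 and 92.1 FPKM in the controls and 89.7 and 84.5 in the mutants, with overlapping groups.

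The entry steps of the urea cycle were scarcely detected; these genes were also chosen after their values were seen. Nags and Otc were listed at 0 in all 4 libraries. Cps1, the carbamoyl phosphate synthetase of liver mitochondria, was at 0.0253 and 0.0249 FPKM in the controls and 0.0254 and 0.264 in the mutants. Arg1, the cytosolic arginase of liver, lay between 0.210 and 0.834 FPKM, below Arg2 in every library.

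The second list held other genes that handle glutamine, glutamate and ammonia. Of 35 listed genes 34 were matched and 32 tested, and 0 passed the limma adjusted p. At an unadjusted p under 0.05, 4.57% of all tested genes were lower and 2.67% higher, and of this list 3 were lower and 1 higher. The lower count was 6 without control replicate 2, and the higher count was 0 without control replicate 1, with the replicate block, with no filter on low values and without the variance trend. The list's median log2 change was -0.01, near that of all tested genes. Pck1, which carries the carbon left from glutamine into glucose, was at 33.7 and 34.6 FPKM in the controls and 11.1 and 12.6 in the mutants. Its log2 change was -1.46 (SE 0.10) with a limma adjusted p of 0.0504, at the edge of the threshold, and under 14 alternatives the adjusted p ran from 0.039 to 0.21, with 6 of them past it.

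Ggt1, the brush border enzyme that splits glutathione and can release glutamate, was at 132 and 123 FPKM in the controls and 89.8 and 79.7 in the mutants. Slc4a4, the basolateral bicarbonate carrier, was at 26.0 and 16.5 against 11.2 and 11.4 FPKM; its log2 change was -0.82, and -0.51 without control replicate 1. Nit2, an omega-amidase that releases ammonia from a product of glutamine, was at 50.03 and 54.7 against 67.3 and 60.8 FPKM. Neither Ggt1, Slc4a4 nor Nit2 passed the limma adjusted p (0.19, 0.51 and 0.61).

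The ammonia channels of the kidney, chosen after their values were seen, had overlapping groups. Rhcg, an ammonia channel of distal segments and collecting duct, was at 42.6 and 47.2 against 45.1 and 47.0 FPKM, and the related Rhbg lay between 17.7 and 18.9 FPKM in all 4 libraries.

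All 7 loci had a smaller change than the median proximal tubule marker. The marker list was assembled with earlier results on these libraries known, so its direction is not independent evidence. Its median log2 change was -1.28, and 11 of 12 markers were lower at an unadjusted p under 0.05, as were 4.57% of all tested genes. The markers ran from -1.57 to -0.59, so Ass1, at -0.75, lay within their range. As a percentage of the summed FPKM of the markers, Ass1 was at 17.7% and 22.7% in the controls and 28.1% and 27.5% in the mutants. Oat was at 8.90% and 13.4% against 27.6% and 25.5%. Each of the 7 loci was higher on this relative scale in both mutants than in either control. The narrowest gap was in Slc38a3, at 1.99% and 3.85% against 4.99% and 4.04%. The marker sum was 629 and 453 FPKM in the controls and 225 and 232 in the mutants, so a gene of unchanged level also rises on this scale. The share of all tested genes that rise in this way was not computed. The ratio moves with the marker sum, which itself differed between the controls, so it describes the libraries and was not tested.

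**Figure D3:**
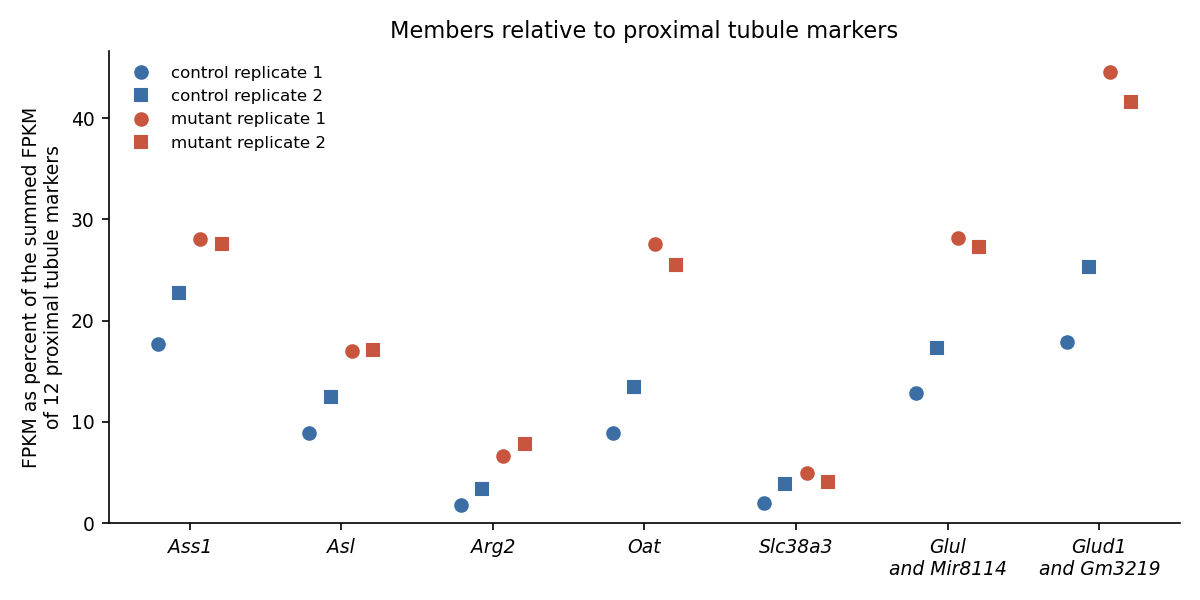
FPKM of the 5 genes and 2 joint loci as a percentage (y axis, from 0) of the summed FPKM of 12 proximal tubule markers in each library (blue control, red mutant). Every red point lies above both blue points of its gene, from 17.7% and 22.7% to 28.1% and 27.5% for Ass1 and from 8.90% and 13.4% to 27.6% and 25.5% for Oat. The marker sum was lower in the mutants, so a gene of unchanged level also rises on this scale.

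Markers of other cells were checked because liver also holds much Ass1 and Asl. The 6 hepatocyte markers together were at 41.2 and 49.8 FPKM in the controls and 37.0 and 80.2 in the mutants. Among them albumin (Alb) was at 0.295 and 1.09 FPKM in the controls and 1.11 and 21.1 in the mutants, and alpha-fetoprotein (Afp) at 25.8 and 33.8 against 25.2 and 40.3. Ttr went the other way to Alb, at 14.7 and 10.9 FPKM in the controls and 5.51 and 9.75 in the mutants. No hepatocyte marker was at 0 in all libraries, and Apoa2 was listed at 0 in control replicate 1. Without mutant replicate 2 the log2 change was -0.75 for Ass1 and -0.54 for Asl, and with all libraries it was -0.75 and -0.52. The part of liver tissue in the members' differences was not tested. Adrenal cortex markers summed to between 0.348 and 1.23 FPKM, with Cyp11b1 and Cyp21a1 at 0 in all 4 libraries, and skeletal muscle markers to between 0.7996 and 3.39. Stroma markers were at 351 and 290 FPKM in the controls and 292 and 251 in the mutants, with 4 of 4 changes negative and overlapping sums. Besides the proximal tubule markers, the sums of the distal tubule, erythroid and adrenal cortex markers did not overlap between the groups. The adrenal cortex sums were at 0.692 and 1.23 FPKM in the controls and 0.348 and 0.676 in the mutants, with all 4 matched markers under 1. Distal tubule markers summed to 81.8 and 101 FPKM in the controls and 142 and 102 in the mutants. Of these markers Calb1 was at 48.9 and 59.5 against 117 and 67.1 FPKM. However, 2 of the 4 distal tubule changes were negative, and their median log2 change was -0.07. The 2 of 4 erythroid markers that matched summed to 17.5 and 21.4 against 27.7 and 29.4 FPKM. The part of the stroma, distal tubule, erythroid and adrenal cortex markers in the members' differences was not tested.

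The genes most like each member across the 4 libraries were found by the distance between log2(FPKM + 1) values centred on each gene's own mean, among 10350 genes. With 4 libraries many genes come close, so these are descriptions. Nearest to Ass1 were Pde8b (distance 0.020), a phosphodiesterase, then Rab11fip3 (0.029) and Csad (0.060), an enzyme of taurine synthesis. Csad was at 67.5 and 60.4 FPKM in the controls and 39.1 and 39.0 in the mutants. Nearest to Asl were Pkig (0.040), Snx8 (0.056) and Abcg2 (0.059), an export pump, which was at 46.8 and 44.2 against 31.3 and 32.3 FPKM. Nearest to Oat was Mmab (0.0062), to Arg2 Gadd45b (0.013) and to Slc38a3 Cep164 (0.055). The joint locus of Glul lay nearest to the creatine carrier Slc6a8 (0.029), and that of Glud1 to Slc3a2 (0.016), the heavy chain that Slc7a7 pairs with.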

How the data were processed

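RNA from whole kidneys was poly(A) selected, per the labels' protocols, and FPKM values were computed by the authors, 1 table per library. The submitters' processing notes name Cufflinks 2.1.1, TopHat2 2.0.11, SAMtools 0.1.19 and Bowtie 1.0.0, and the build mm9; which annotation and settings were used is not given in the sources. Rows were joined by symbol over the 4 tables (22761 names), FPKM was summed over rows of the same symbol, and 99 names with a row not marked OK were left out. A gene entered the test if 2 or more libraries had an FPKM of 1 or more (13287 genes), on log2(FPKM + 1) with limma 3.58.1 in R 4.3.3 (mean-variance trend, group as the only term), with Benjamini-Hochberg adjustment over all of them and a threshold of 0.05. A fold on this scale understates changes at low levels. The fit was also run on simulated data, and how often it called changed genes there is not reported here.

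Members, lists, markers and the Hnf4 element cores were chosen with earlier results of these data known; the GC and CCAAT boxes, and a TATAA search that matched in none of the 4 windows, were added after the sequences were seen. By rule the text names every member, up to 6 genes per pathway list by size of change at an unadjusted p under 0.05, and the 3 tested genes of mean FPKM of at least 5 nearest in pattern to each member, leaving out joint names, small RNA genes and unnamed gene models; not all of these are printed, and 1 listed gene is counted in its list but not reported here. The 14 alternatives covered the pseudocount, filter, scaling, variance model, rows, replicate block and each library left out; counting the joint loci was added after seeing the data.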

Additional observations from a re-analysis of the deposited data

How the results depend on the processing

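Under the 14 alternatives, 0 of the 5 members passed the adjusted p in either direction, and at an unadjusted p under 0.05 Ass1 and Asl were lower in all 14. The log2 change ran from -0.80 to -0.69 for Ass1 (adjusted p from 0.082 to 0.30) and from -0.54 to -0.48 for Asl (0.13 to 0.55). Leaving out 1 library gave 2 to 3 members lower at that level; with the joint loci there were 4. Oat ran from -0.0054 (without control replicate 1) to 0.11 (without control replicate 2), so that its sign turned. With all libraries its log2 change was 0.05, and control replicate 1 was its lowest library, at 56.0 FPKM. The median of the members was -0.38 with a pseudocount of 5, -0.33 with the joint loci and from -0.52 to -0.26 with 1 library left out; the joint loci change it by adding members. Over all genes, 15 were called lower and 6 higher. The lower count was 35 with no filter, 26 at an FPKM of at least 5, 7 without the variance trend and 0 to 9 with 1 library left out, and the higher count was 0 to 5 with 1 library left out. Median of ratios scaling moved the median of all genes by -0.017.

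The labels do not say whether a replicate number marks a shared litter or batch; deviations of same-numbered libraries correlated at 0.15 over genes. With the replicate block 3 genes were called lower and 3 higher, and 0 members. With that block the adjusted p was 0.21 for Ass1 and 0.27 for Asl. A group left with a lone library is assumed to vary like the other group. The tables hold no read totals, so depth sets an unknown limit for the members at low levels, Arg2 and Slc38a3.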
